A study of Mus musculus with 8 samples.

Results

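tRNA and snoRNA levels in Hepa 1.6, a hepatoma line of the mouse, were compared between 1 library from Kap1 knock-down (KD) cells and 1 control library, and every row of the small RNA count table of this pair was included. The table lists 475 sequences, of which 379 are tRNAs and 96 are snoRNAs, and these libraries are 2 of the 8 samples of the series. KAP1, encoded by Trim28, is a corepressor recruited to chromatin by KRAB zinc finger proteins. The KD cells received a pLKO lentiviral vector with an shRNA against Kap1, and the control cells received the empty vector according to the methods and the sample title, or a control shRNA according to another label. Delivery is labelled as plasmid transfection for the samples but as transduction in the treatment notes, 5 days ahead of harvest. Both cultures were selected with puromycin, and total RNA was isolated with Trizol and miRNeasy and depleted of rRNA with Ribo-zero before library preparation. One shRNA was used in 1 cell line, so an effect of this vector cannot be told apart from loss of KAP1. As each condition has 1 library, every ratio below compares libraries and has no replicate check, and its 95% exact binomial interval covers counting error only. A lower count per cell and a different make-up of the culture cannot be told apart in bulk RNA.

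Transfer RNAs are transcribed by RNA polymerase III, trimmed at both ends, spliced where they carry an intron, and charged with the amino acid that matches their anticodon. Most vertebrate snoRNAs are instead cut out of introns of RNA polymerase II transcripts, the host genes, after splicing. C/D box snoRNAs (named Snord) guide 2′-O-methylation and H/ACA box snoRNAs (named Snora) guide pseudouridylation, mainly of rRNA. Hepatocytes and hepatoma cells express both classes as housekeeping RNAs of ribosome production and translation.

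The snoRNAs on which the description below turns are printed first, as the reference sequence of NCBIM37 (mm9), 5′ to 3′. They are the most abundant one, the largest changes in either direction that could be placed, pairs of relatives from 1 host gene, and RT-qPCR references of the study. Capitals mark TGATG, the core of the C box, where it occurs in the first 25 bases, CTGA, the D box, in the last 25 bases, or ACA in the last 15 bases of an H/ACA box snoRNA. Of 96 snoRNA rows, 73 could be placed on this build by name and length, 51 C/D and 22 H/ACA. All 51 placed C/D snoRNAs hold CTGA there and 44 (86.3%) hold TGATG as well, while all 22 placed H/ACA snoRNAs hold ACA and 0 hold TGATG. Only the strand of the RNA was searched.
Snord12: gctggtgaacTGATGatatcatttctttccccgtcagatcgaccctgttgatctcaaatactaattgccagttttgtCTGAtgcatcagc
Snord88a: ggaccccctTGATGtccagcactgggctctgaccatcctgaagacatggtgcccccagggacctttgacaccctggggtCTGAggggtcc
Snord88c: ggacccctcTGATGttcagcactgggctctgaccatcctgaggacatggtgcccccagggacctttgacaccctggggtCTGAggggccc
Snord49a: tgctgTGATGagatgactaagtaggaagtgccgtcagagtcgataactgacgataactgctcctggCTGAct
Snord49b: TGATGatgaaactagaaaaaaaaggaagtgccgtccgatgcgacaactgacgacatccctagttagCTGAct
Snord1a: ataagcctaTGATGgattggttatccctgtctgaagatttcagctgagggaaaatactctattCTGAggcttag
Snord1b: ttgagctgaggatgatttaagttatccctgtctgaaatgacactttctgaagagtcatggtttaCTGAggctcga
Snord35a: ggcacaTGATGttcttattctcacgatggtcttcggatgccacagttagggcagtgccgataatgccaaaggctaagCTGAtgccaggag
Snord104: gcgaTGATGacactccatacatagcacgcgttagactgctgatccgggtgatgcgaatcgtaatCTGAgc
Snora28: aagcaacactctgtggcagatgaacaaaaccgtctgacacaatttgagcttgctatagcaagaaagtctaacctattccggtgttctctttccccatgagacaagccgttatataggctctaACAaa
Snora24: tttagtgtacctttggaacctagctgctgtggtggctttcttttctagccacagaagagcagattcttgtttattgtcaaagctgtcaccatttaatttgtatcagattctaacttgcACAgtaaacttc
Snora5c: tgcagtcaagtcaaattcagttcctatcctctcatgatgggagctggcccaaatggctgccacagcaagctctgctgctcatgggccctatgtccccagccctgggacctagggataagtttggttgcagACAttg
In the order printed, these lie at chr2:166890776-166890865 (plus strand), chr7:51505505-51505594 (plus strand), chr7:51505222-51505311 (plus strand), chr11:62416952-62417023 (plus strand), chr11:62416581-62416652 (plus strand), chr11:116535912-116535985 (plus strand), chr11:116535462-116535536 (plus strand), chr7:52381716-52381805 (minus strand), chr11:106362307-106362376 (plus strand), chr12:112779152-112779278 (plus strand), chr9:3352657-3352786 (plus strand) and chr11:6520322-6520457 (minus strand). Snord12 overlaps an exon of 1500012F01Rik transcripts, Snord88a and Snord88c lie in introns of 2410002F23Rik, Snord49a and Snord49b in introns of the lincRNA gene 2410006H16Rik, Snora28 in an intron of Eif5 and Snora24 in an intron of Alkbh8. Snord1a and Snord1b overlap exons of 1810032O08Rik transcripts, Snora5c overlaps an exon of Tbrg4 transcripts, and Snord35a lies in an intron of Rpl13a. For Snord104 the annotation gives no host gene on its strand. Sequences of the tRNA rows are not shown here.

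The control library held 26249204 counts over the listed sequences and the Kap1 KD library 29223566. Per sequence the counts ran from 0 to 12927993, and 339 of the 475 rows reached the minimum of 50 counts summed over both libraries, 246 tRNA and 93 snoRNA. The row just under this minimum was chr13.tRNA988-PheGAA with 49 counts, and the row just over it was chr13.tRNA976-SerGCT with 51. tRNA made up 4.03% of the control counts (Wilson 95% interval 4.03% to 4.04%) and 2.24% of the Kap1 KD counts (2.23% to 2.24%). The summed tRNA counts were 1059106 in control and 653800 in Kap1 KD, and those of snoRNA were 25190098 and 28569766. The tRNA total therefore moved by -0.88 on the log2 scale against the snoRNA total.

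Sequence by sequence the same order held. Log2 ratios of Kap1 KD to control were scaled with TMM, which sets a trimmed mean of the ratios to 0, after 0.5 was added to each count. The median was -0.12 over 246 tRNA rows and 0.49 over 93 snoRNA rows, a difference of 0.61 that no scaling of the libraries can alter. Of the snoRNAs, 84 of 93 lay above the tRNA median, and of the tRNA rows, 26 of 246 lay above the snoRNA median. At least 1.5-fold higher in Kap1 KD were 57 of 339 sequences (16.8%), made up of 20 of 246 tRNA (8.13%) and 37 of 93 snoRNA rows (39.8%). At least 1.5-fold lower were 59 of 339 (17.4%), made up of 57 tRNA (23.2%) and 2 snoRNA rows (2.15%). Which class lay above 0 depended on the scaling: with total counts every ratio drops by 0.81, the snoRNA median becomes -0.32 and the tRNA median -0.92, and 3 sequences are at least 1.5-fold higher against 208 lower. For that reason, the values below are best read against each other or against the class median, and the signs of single ratios are those of TMM scaling.

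**Figure D1:**
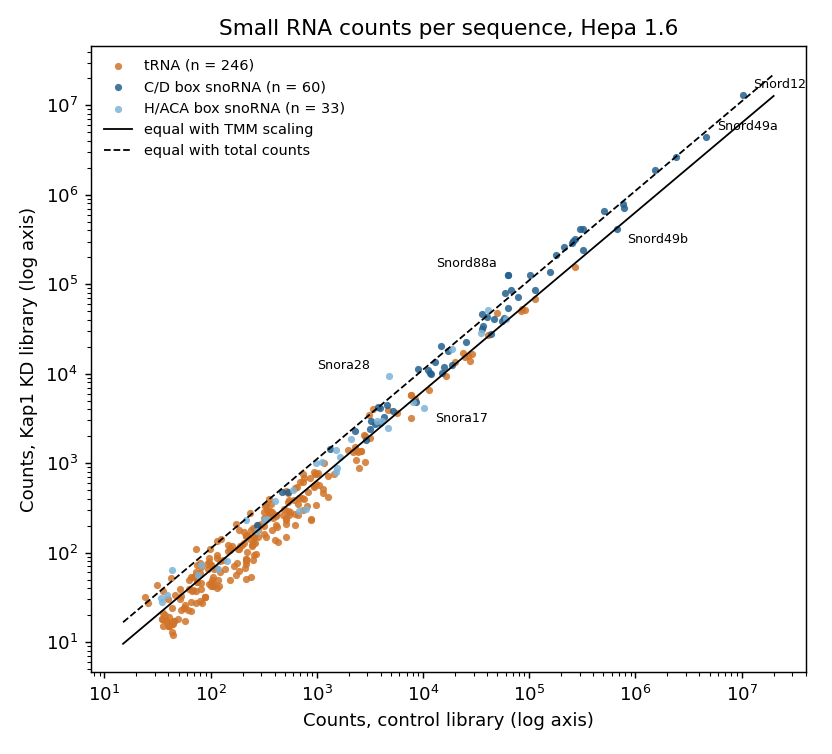
Counts of each sequence with at least 50 counts in the control library (x axis) and the Kap1 KD library (y axis), both on log axes, coloured by class; each point is 1 sequence in 1 pair of libraries. The solid line marks equal levels with TMM scaling and the dashed line equal levels with total counts. Most C/D box snoRNAs lie between or above the lines, and most tRNAs lie on or below the solid one.

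Within the snoRNAs, the C/D box class stood higher than the H/ACA box class. The median ratio was 0.59 over 60 C/D and 0.33 over 33 H/ACA snoRNAs, a difference of 0.26 that again does not depend on scaling and was 0.41 among snoRNAs with at least 500 counts. With TMM scaling 58 of 60 C/D snoRNAs lay above 0, with total counts 19 of 60. Of the H/ACA class, 24 of 33 lay above 0 with TMM and 3 of 33 with total counts. At least 1.5-fold higher were 31 C/D and 6 H/ACA snoRNAs, and both snoRNAs at least 1.5-fold lower, Snora5c and Snora17, were of the H/ACA class. C/D snoRNAs also carried nearly all snoRNA counts, 24984587 of 25190098 in control, and 12 sequences sufficed for at least 90% of the snoRNA counts of both libraries together. Spearman's rho between the ratio and the summed counts was 0.40 over the 60 C/D snoRNAs and -0.04 over the 33 H/ACA snoRNAs, where sequences share their libraries.

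The 5 most abundant snoRNAs were C/D box RNAs that differed among themselves by much more than their counting intervals. Snord12, whose sequence is printed first, had 10229138 counts in control and 12927993 in Kap1 KD, 39.0% and 44.2% of all counts, for a ratio of 0.99. Snord49a went the other way in share, with 4630544 counts (17.6%) in control and 4455092 (15.2%) in Kap1 KD, and its ratio was 0.60. Snord83b, from an intron of the ribosomal protein gene Rpl3, had 2413242 and 2669171 counts and a ratio of 0.80. Snord110, from an intron of Nop56, whose product is a core protein of C/D snoRNPs, had 1541334 and 1906902 counts and a ratio of 0.96. Snord99 had 759884 and 779351 counts and a ratio of 0.69. A change of scaling shifts all 5 alike, and with total counts Snord83b, Snord99 and Snord49a lie below 0, at -0.01, -0.12 and -0.21.

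Among snoRNAs with at least 500 counts, Snord88c, Snord88a, Snora28, Snord53 and Snord1b had the 5 largest increases. Snord88c rose from 62701 counts in control to 126990 in Kap1 KD, a ratio of 1.67 (1.66 to 1.68), and Snord88a from 63596 to 128430, a ratio of 1.66 (1.65 to 1.68). They lie in introns of one gene and their sequences match at 85 of 90 aligned positions (94.4%). Snord88c ends at 51505311 and Snord88a starts at 51505505, so windows with the flanks of 200 bp stated in the row names overlap too. Reads from either could thus be counted at the other, and they may not be separate observations. Snora28, an H/ACA snoRNA, had 4769 counts in control and 9374 in Kap1 KD, a ratio of 1.63 (1.58 to 1.68), which set it 1.14 above the snoRNA median. Snord88a, Snord88c and Snora28 were the only 3 sequences that stayed at least 1.5-fold higher with total counts, at 0.86, 0.86 and 0.82. Snord53 had 14722 and 20621 counts (ratio 1.14) and Snord1b 297817 and 413972 (ratio 1.13).

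All 5 of the lowest snoRNAs with at least 500 counts belonged to the H/ACA class. Snora5c had 797 counts in control and 304 in Kap1 KD, a ratio of -0.74 (-0.94 to -0.55). Snora17, the most abundant of the 5, had 10198 and 4130 counts, a ratio of -0.65 (-0.71 to -0.60), and Snora41 had 674 and 290 counts, a ratio of -0.56 (-0.77 to -0.37). Snora24 followed with 4697 and 2448 counts (ratio -0.29) and Snora30 with 1511 and 792 (ratio -0.28). Each of these had fewer counts in the Kap1 KD library although that library was the larger one, so they lay below 0 with total counts too. With Snora28 at the other end, the H/ACA class spanned from -0.74 to 1.63, and the C/D class from -0.17 for Snord42a to 1.67.

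**Figure D2:**
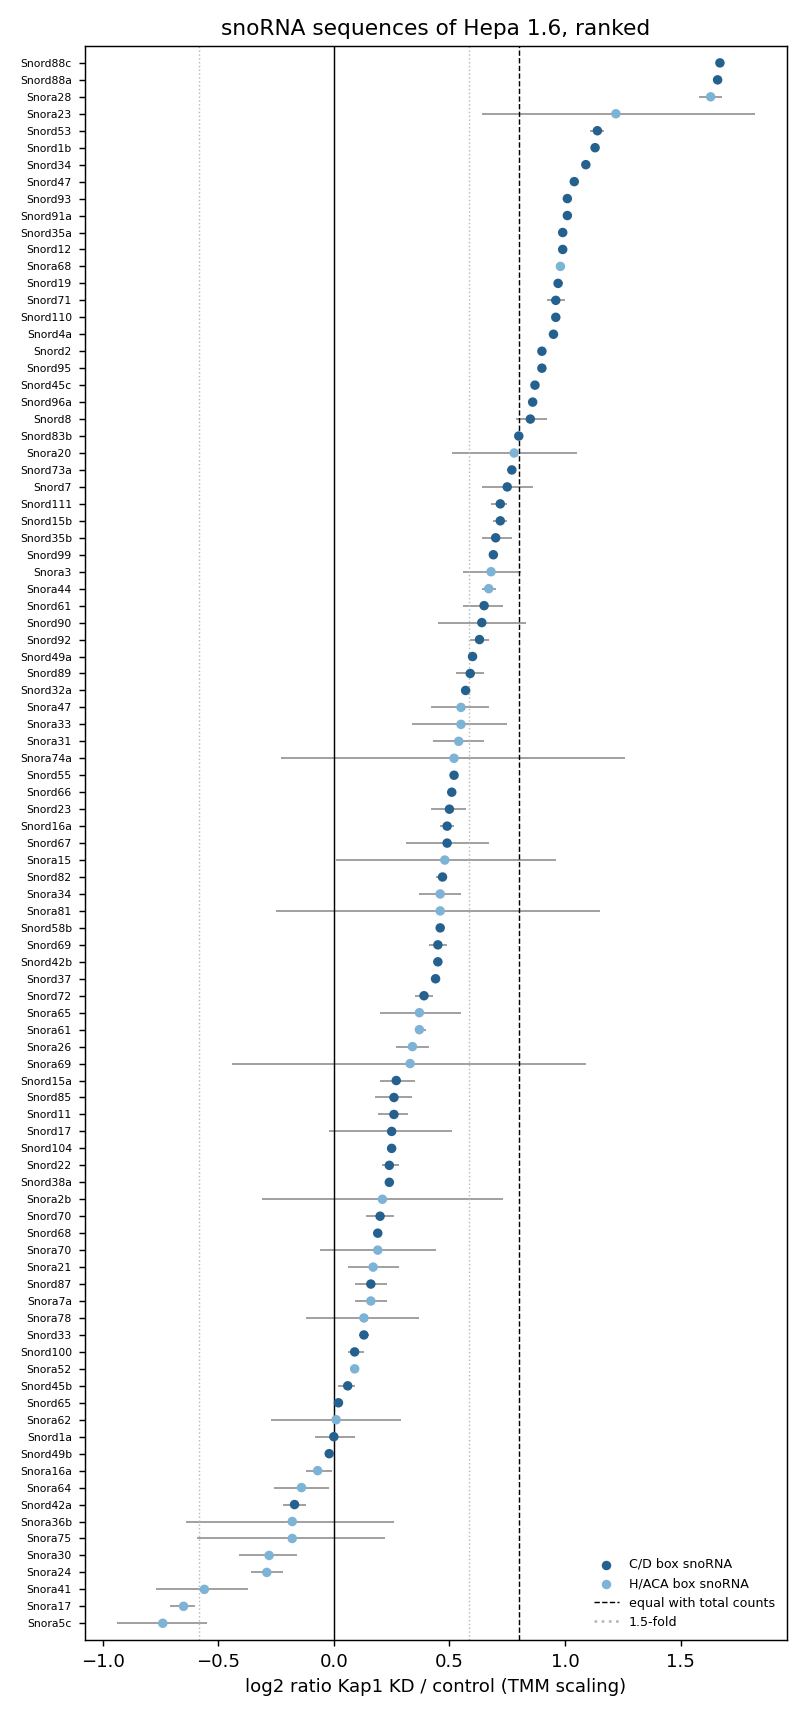
The 93 snoRNAs with at least 50 counts ranked by their log2 ratio of Kap1 KD to control with TMM scaling (x axis), 1 row per snoRNA; bars are 95% exact binomial intervals for counting error. Dotted lines mark 1.5-fold and the dashed line the position of equal levels with total counts. Snord88a, Snord88c and Snora28 stand apart at the top, at 1.63 to 1.67, and the 5 lowest points are H/ACA box snoRNAs.

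snoRNAs of one host gene often differed in their ratios. Rpl13a, a ribosomal protein gene, holds 4 of the listed C/D snoRNAs. Snord33 had 55353 counts in control and 38606 in Kap1 KD (ratio 0.13), Snord32a 36448 and 34413 (0.57), Snord35a 68056 and 85817 (0.99) and Snord34 58543 and 79406 (1.09). Counts thus fell for the first 2 and rose for the last 2, although the 4 lie in one host gene. Row names state flanks of 200 bp, and with these the windows of close neighbours overlap. Snord35a ends at 52381805 and Snord34 starts at 52381971, and Snord34 ends at 52382040 and Snord33 starts at 52382234. Counts of such neighbours may therefore not be fully separate. In 1810032O08Rik, Snord1a went from 2885 to 1838 counts (ratio 0.00) and Snord1b from 297817 to 413972 (1.13), a 2.18-fold gap between relatives whose printed sequences match at 49 of 77 aligned positions (63.6%). In 2410006H16Rik, Snord49b fell from 666706 to 418540 counts and Snord65 from 43495 to 28104 (ratios -0.02 and 0.02), while Snord49a had a ratio of 0.60. Snord49a and Snord49b match at 70.7% of 75 aligned positions. In Rpl23a the ratios were -0.17 for Snord42a, 0.45 for Snord42b and 0.95 for Snord4a, and in Rabggtb 0.06 for Snord45b and 0.87 for Snord45c. In Snhg12 and Ncl the H/ACA member was the lower one, Snora16a at -0.07 against Snord99 at 0.69, and Snora75 at -0.18 against Snord82 at 0.47. In 2 hosts the members did not differ beyond counting error, namely 2410002F23Rik with Snord88a and Snord88c (1.66 and 1.67), and 2310037I24Rik, where Snora2b at 0.21 had an interval of -0.31 to 0.73 that covers Snora34 at 0.46. Gaps between members of a host are free of the scaling.

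Host transcripts were measured in other libraries of polyadenylated RNA, with 2 control and 2 Kap1 KD samples. For 66 snoRNAs the host gene was tested there. The host fold changes spanned a narrower range than the snoRNA ratios, which rest on 1 library per condition and another kind of library. The 51 hosts had log2 fold changes from -0.53 to 0.47 with a median of 0.05, and all 51 were within 1.5-fold. This does not show that hosts were unchanged. With same-numbered samples paired as a block, where number 1 is inferred, edgeR gave small adjusted p in both directions. It was 0.000109 for 1500012F01Rik, the host of Snord12 (log2 change -0.35), and 0.00211 for Gas5 (-0.28). For Rps2 (0.44) it was 1.19e-11 and for Rpl13 (0.36) 6.09e-08. Eif5, the host of Snora28, stood at -0.10 (standard error 0.33), 2410002F23Rik, the host of Snord88a and Snord88c, at 0.02 (0.17), and Tbrg4, the host of Snora5c, at 0.20 (0.24). Across the 66 snoRNAs, Spearman's rho between the snoRNA ratio and the host fold change was -0.09, where snoRNAs of one host share its value. snoRNAs in ribosomal protein genes (23, median 0.39) and in other hosts (44, median 0.53) covered overlapping ranges, from -0.17 to 1.09 and from -0.74 to 1.67.

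**Figure D3:**
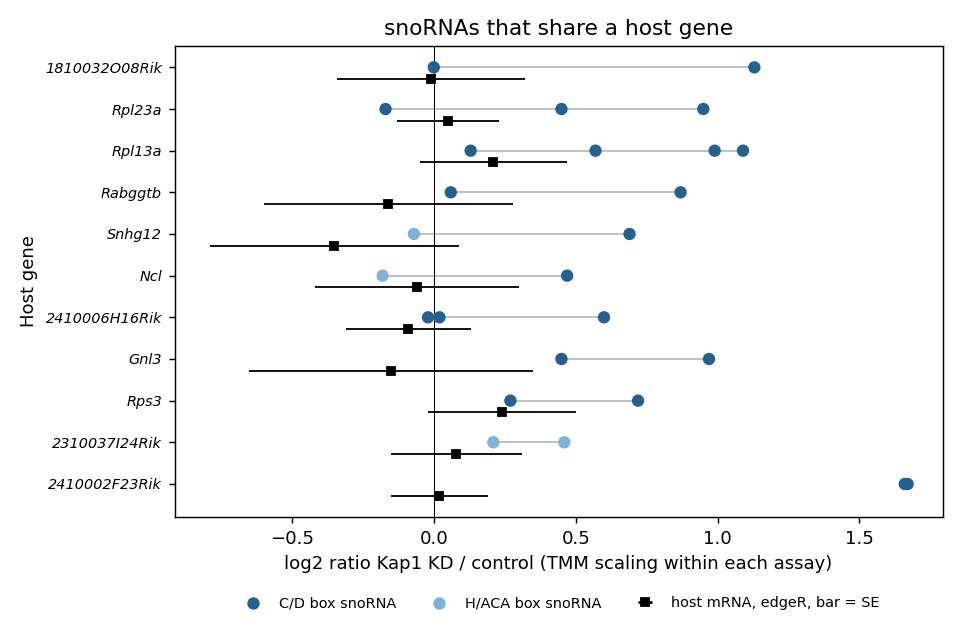
Host genes with 2 or more listed snoRNAs (y axis) and the log2 ratio of Kap1 KD to control of each snoRNA (circles, 1 library per condition) and of the host mRNA (black squares, edgeR, 2 libraries per condition, bar = standard error). The members of 1810032O08Rik, Rpl23a and Rpl13a spread widest, from 0.00 to 1.13, from -0.17 to 0.95 and from 0.13 to 1.09, while the host values lie between -0.35 and 0.24.

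Few of the snoRNA lists with special roles were represented. The table holds 0 rows of the snoRNAs of pre-rRNA cleavage (Snord3, Snord13, Snord14, Snord118, Snora73) and 0 small Cajal body RNAs. Of the imprinted clusters it holds Snord64 alone, which had 2 counts in control and 0 in Kap1 KD and gives no ratio. Snord47, from the growth arrest transcript Gas5, had 319714 counts in control and 418612 in Kap1 KD (ratio 1.04), and Snord22, from Snhg1, had 15625 and 11781 (ratio 0.24). The 3 snoRNAs that served the study as RT-qPCR references differed from each other: Snord104 went from 112984 to 85374 counts (ratio 0.25), Snord35a from 68056 to 85817 (0.99) and Snord53 from 14722 to 20621 (1.14). Their counting intervals, such as 0.23 to 0.26 for Snord104 and 1.11 to 1.17 for Snord53, did not overlap, and the gaps between them do not depend on scaling.

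Turning to tRNAs, a few rows held most counts. As few as 21 of 379 rows held at least 90% of the tRNA counts of both libraries together. The most abundant, chr13.tRNA981-AspGTC, had 267900 counts in control and 154893 in Kap1 KD, a ratio of -0.14 (-0.15 to -0.13). chr13.tRNA75-ThrCGT followed with 112922 and 68259 (ratio -0.08), chr12.tRNA790-LysCTT with 91510 and 51472 (-0.18), chr10.tRNA1095-SerTGA with 85948 and 53269 (-0.04) and chr2.tRNA1432-HisGTG with 84453 and 50785 (-0.08). These 5 lie within 0.08 of the tRNA median. The 19 tRNA rows with at least 10000 counts had a median of -0.08 and ran from -0.62 for chr1.tRNA698-LeuCAG to 0.60 for chr16.tRNA267-LysCTT, the sixth most abundant row. The 38 rows with 50 to under 100 counts had a median of -0.53 and ranged from -1.18 to 1.12.

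By amino acid, 21 families had rows over the minimum, and their medians ran from -0.66 for Phe (2 rows) and -0.62 for Leu (29 rows) to 0.44 for His (8 rows) and 0.70 for Cys (3 rows). Leu, Glu (12 rows, median -0.55) and Gly (21 rows, -0.47) held 30 of the 57 tRNA rows at least 1.5-fold lower, with 15 in Leu, 5 in Glu and 10 in Gly. The 5 Glu rows were all Glu-TTC. Relative to all tRNA, Leu, Glu and Gly lay at -0.51, -0.44 and -0.35. With at least 500 counts they lay at -0.34, -0.10 and -0.18, so their low medians rested in part on rows with fewer counts. At the upper side, Met (10 rows, median 0.31), SeC (2 rows, 0.30), Gln (7 rows, 0.29), Asn (7 rows, 0.22) and Tyr (9 rows, 0.20) lay above the tRNA median by 0.32 or more. With at least 500 counts, Met lay at -0.16 and Tyr at 0.03 relative to all tRNA, so their place above the median rested on rows with fewer counts. Family medians and family sums could differ. The summed counts of Gln had a ratio of -0.22 and those of His -0.01, against -0.05 for all tRNA. In Gln, chrX.tRNA936-GlnTTG held 84.1% of the control counts and had 27622 and 13789 counts (ratio -0.35). In His, chr2.tRNA1432-HisGTG held 90.5% of the control counts (ratio -0.08). In Cys the top row, chr17.tRNA458-CysGCA, had 16457 and 9344 counts (ratio -0.17), and the other 2 rows had under 50 counts per library (ratios 0.70 and 1.12). With at least 500 counts, the Cys value relative to all tRNA was -0.10.

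**Figure D4:**
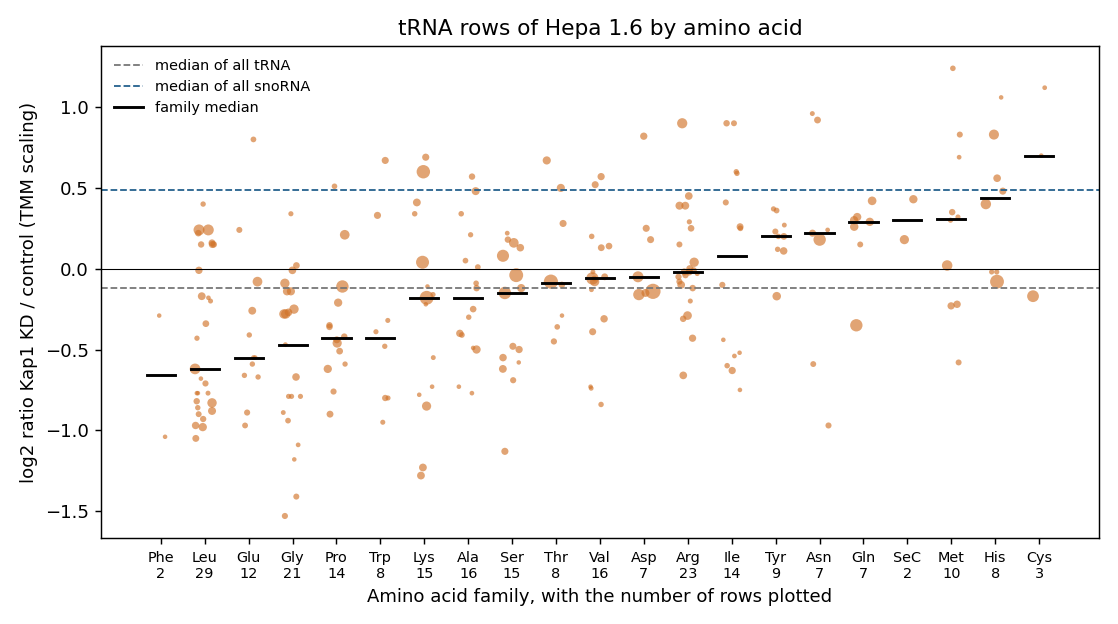
Log2 ratio of Kap1 KD to control with TMM scaling (y axis) of the 246 tRNA rows with at least 50 counts, by amino acid family (x axis, with the number of rows); point area grows with summed counts and horizontal position within a family is arbitrary. Black bars are family medians and dashed lines the medians of all tRNA (-0.12) and all snoRNA (0.49). The 5 largest points lie within 0.08 of the tRNA median, and Leu, Glu and Gly hold most of the low points.

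The Leu rows differed between anticodons, with overlap. For Leu-AAG, chr13.tRNA63-LeuAAG had 7649 and 5764 counts and a ratio of 0.24, and the median of its 8 rows was 0.15, with 2 of them at least 1.5-fold lower and the lowest at -0.86. For Leu-CAG, chr1.tRNA698-LeuCAG had 7778 and 3217 counts and a ratio of -0.62, 8 of 10 rows were at least 1.5-fold lower, and the median was -0.77, with the highest row at 0.22. Leu-TAG had a median of -0.82 over 3 rows and Leu-TAA of -0.18 over 4. Leu-CAA, the intron-bearing leucine tRNA, had 4 rows with a median of -0.90, led by chr13.tRNA65-LeuCAA with 2861 and 1027 counts (ratio -0.83) and chr11.tRNA1911-LeuCAA with 1286 and 416 (ratio -0.98). Ser, which like Leu has a long variable arm, had a median of -0.15 over 15 rows. chr10.tRNA688-SerCGA, with 509 and 148 counts and a ratio of -1.13, was among the 5 largest decreases of tRNA rows with at least 500 counts.

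Other intron-bearing tRNAs did not follow Leu-CAA. All 4 Arg-TCT rows lay between 0.39 and 0.90, and chr3.tRNA628-ArgTCT, with 3395 counts in control and 4028 in Kap1 KD, had a ratio of 0.90 (0.83 to 0.96). Tyr-GTA had 8 of 9 rows above 0, with 1272 and 718 counts and a ratio of -0.17 in its most abundant row, and Ile-TAT had a median of 0.41 over 5 rows. All Met tRNAs carry the anticodon CAT, so initiator and elongator rows could not be told apart by name. chr3.tRNA792-MetCAT, with 5645 and 3650 counts, had a ratio of 0.02, and chr11.tRNA1132-MetCAT, with 73 and 110 counts, had the highest tRNA ratio, 1.24 (0.80 to 1.69). The selenocysteine tRNA had 1958 and 1411 counts at chr7.tRNA86-SeCTCA (ratio 0.18) and 931 and 797 at chr5.tRNA13-SeCTCA (0.43). The 1 row named as a suppressor tRNA had 17 and 14 counts and was left out of ratios.

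Genes for one anticodon could differ more than families did. Among 16 anticodons with 3 or more rows of at least 500 counts, the range was smallest for Leu-AAG (3 rows, 0.15 to 0.24), and largest for Lys-CTT (7 rows, -1.28 to 0.69, a 3.90-fold span). The lowest tRNA ratio was that of chr1.tRNA1392-GlyGCC, -1.53, with 242 and 53 counts. Among tRNA rows with at least 500 counts, the 2 largest decreases were both Lys-CTT, chr9.tRNA1514-LysCTT with 888 and 233 counts (ratio -1.28, interval -1.49 to -1.07) and chr1.tRNA1268-LysCTT with 880 and 238 (ratio -1.23, interval -1.45 to -1.03), and chr9.tRNA1035-LysCTT had 2488 and 878 (ratio -0.85). chr16.tRNA267-LysCTT instead had 49418 and 47660 counts and a ratio of 0.60, and chr3.tRNA292-LysCTT had 331 and 339 and a ratio of 0.69. Besides chr3.tRNA628-ArgTCT and chr3.tRNA292-LysCTT, the largest increases among rows with at least 500 counts were chr1.tRNA814-AsnGTT with 233 and 280 counts (0.92), chr2.tRNA586-HisGTG with 3076 and 3481 (0.83) and chr5.tRNA1316-AspGTC with 356 and 399 (0.82). chr8.tRNA1008-LeuCAG, with 432 and 133 counts, was at -1.05, and chr10.tRNA688-SerCGA and chr11.tRNA1911-LeuCAA, given above, completed the 5 largest decreases at this minimum. tRNA genes exist in near-identical copies, and while the RNA-seq methods state that 1 alignment was kept per read, whether this also made the small RNA counts is not given in the sources used here. In 6 groups, 13 rows of one anticodon had the same counts in both libraries, such as chr3.tRNA287-GlyCCC and chr3.tRNA755-GlyCCC with 2601 and 1364 each, and single rows are uncertain to that extent.

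The share of low tRNA rows differed between chromosomes. On chromosome 1, 14 of 21 rows were at least 1.5-fold lower and the median was -0.77, against 57 of 246 over all tRNA. Chromosome 9 had 3 of 4 such rows (median -0.76) and chromosome 8 had 3 of 6 (-0.55), while chromosome 19 had 0 of 9 (0.13). Chromosome 13, which holds 66 rows over the minimum, had a median of -0.08. The chromosome 1 rows include 3 Gly-GCC rows with 88 and 32 counts each, whose counts were identical, and the Leu-CAG row above, so anticodon and position cannot be told apart there.

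The other small RNA pair of the series, 1 wild type and 1 Kap1 knock-out (KO) library of primary murine hepatocytes, shares no library with the Hepa 1.6 pair and was depleted of rRNA with another kit. Of the 475 sequences, 453 are listed there as well, and 92 snoRNA and 162 tRNA rows had at least 50 counts in both pairs. With TMM scaling of each pair, 73 of 92 snoRNAs were higher in both Kap1-depleted libraries and 5 lower in both. A further 8 were higher in Hepa 1.6 cells alone and 6 in hepatocytes alone. Most snoRNAs lay above 0 in each pair, so most would be higher in both without any link between the pairs. Relative to the snoRNA median of each pair, 34 lay above it in both and 34 below it in both. With total counts 15 snoRNAs were higher in both. Of the 162 tRNA rows, 12 were higher in both with TMM scaling and 72 lower in both, while 48 were higher in Hepa 1.6 cells alone and 30 in hepatocytes alone. Across those 92 snoRNAs the ratios of the pairs correlated at a Pearson's r of 0.66 and a Spearman's rho of 0.63, and across the 162 tRNA rows at -0.12 in both measures, where sequences of a pair share their libraries. Relative to the snoRNA median, Snord88a lay 1.18 higher in Hepa 1.6 cells and 2.17 higher in hepatocytes, and Snord12 0.50 and 2.16 higher. Snora41, Snora30, Snora24, Snora17 and Snora5c lay below the snoRNA median in both pairs, by -1.05 and -2.16, -0.77 and -1.37, -0.78 and -1.27, -1.14 and -1.02, and -1.23 and -0.71. Snora28 lay 1.14 above the median in Hepa 1.6 cells and 0.39 below it (-0.39) in hepatocytes. Most H/ACA snoRNAs lay below the snoRNA median in hepatocytes, such as Snora61 (-0.51), Snora3 (-0.46) and Snora47 (-0.42), while Snora44 lay above it (0.42). A place below the median in hepatocytes was thus shared by most of the H/ACA class and is not particular to the rows named here.

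**Figure D5:**
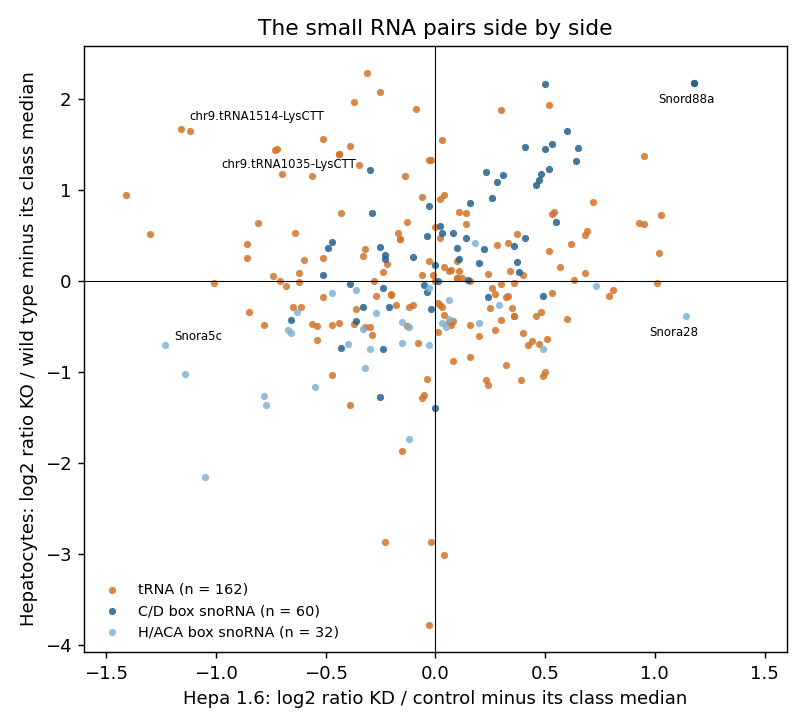
Log2 ratio minus the median of its class for the 254 sequences with at least 50 counts in both pairs, in Hepa 1.6 cells (x axis, Kap1 KD over control) and in primary hepatocytes (y axis, Kap1 KO over wild type); each point is 1 sequence. Among snoRNAs the points run from lower left, where H/ACA box snoRNAs lie, to upper right, where Snord88a lies at 1.18 and 2.17, and tRNA points show no such slope.

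Kap1 and the machinery that makes these RNAs were measured in the separate mRNA libraries. Trim28 had 451 and 577 CPM in the control libraries and 106 and 79.3 in the Kap1 KD libraries, so the groups did not overlap. This was a fall by 2.48 on the log2 scale (standard error 0.25). edgeR's quasi-likelihood test gave it an unadjusted p of 0.00021 and a Benjamini-Hochberg adjusted p of 0.9999, and DESeq2 gave an adjusted p of 2.57e-10. The liver genes Alb (443 to 1560 CPM), Afp (448 to 754), Apoe (421 to 1200) and Hnf4a (85.5 to 203) were present in all 4 libraries, whereas Apoa1 and Ttr stayed under 0.5 CPM. All 6 liver genes tested had negative log2 fold changes in Kap1 KD, from -1.35 for Apoa1 and -0.89 for Alb to -0.42 for Hnf4a. edgeR's test without a replicate block gave each an adjusted p of 0.9999. A replicate block pairs same-numbered samples, where number 1 is inferred. With it, edgeR's adjusted p was 1.08e-55 for Alb, 1.23e-21 for Apoe and 1.49e-14 for Afp. For Hnf4a it was 2.71e-07, for Trf 6.91e-05 and for Apoa1 0.0308. Alb, Apoe and Apoa1 were also past 1.5-fold in that fit. Of the markers of other cells, Ptprc (leukocytes) and Pecam1 (endothelium) did not exceed 0.263 CPM, and Krt19 (biliary epithelium) ran from 0.236 to 2.2 CPM. Col1a1 (fibroblasts) had 0.568 and 1.03 CPM in control and 1.1 and 1.53 in Kap1 KD. With the replicate block, edgeR's adjusted p was 0.0326 for Col1a1 (log2 change 0.72), 0.511 for Krt19 and 0.872 for Pecam1. The part of these differences in the small RNA ratios was not tested. Of 72 listed genes of RNA polymerase III, its factors, tRNA processing and snoRNPs, 69 were tested. Without a replicate block, edgeR called 0 of 69, as it called 0 of all 14142 genes (0%). In that fit, 0 of 69 listed and 185 of all genes had an unadjusted p under 0.05. DESeq2 without the block called 0 of the listed and 3 of all genes. The edgeR fit did not call Trim28 either, so 0 calls there do not show that a gene was unchanged. With the replicate block, edgeR's test gave 30 of 69 listed and 4627 of all 14142 genes (32.7%) an unadjusted p under 0.05. Fold changes of the 18 RNA polymerase III subunits ran from -0.36 to 0.36 on the log2 scale, those of SNAPc from -0.69 for Snapc5 to 0.28, those of TFIIIB and TFIIIC from -0.28 to 0.14, of the tRNA end processing and splicing enzymes from -0.29 to 0.27, and Maf1, the repressor of RNA polymerase III, stood at 0.19. The C/D core proteins (Fbl, Nop56, Nop58 and Nhp2l1) lay between -0.06 and 0.17 and the H/ACA core proteins (Dkc1, Nhp2, Nop10 and Gar1) between -0.07 and 0.16. The listed median was 0.04 and that of all tested genes -0.02.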

How the data were processed

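Small RNA-seq of Hepa 1.6 cells (1 control and 1 Kap1 KD sample) was analysed, beside the hepatocyte small RNA pair and the Hepa 1.6 mRNA-seq (2 control and 2 Kap1 KD samples). The authors deposited whole-number counts per tRNA or snoRNA sequence, whose snoRNA names state flanks of 200 bp, and beside each count a normalized signal that equals the count over a constant for that library. The mRNA counts per gene were deposited without normalization. TopHat2 2.0.11, HTSeq 0.6.1 and mm9 are named in the submitters' processing notes, and the RNA-seq methods state that TopHat kept 1 alignment per read. Whether the same steps made the small RNA counts is not given in the sources used here. All sample columns were mapped by their names, and the repeat columns of the hepatocyte table, identical on all 467 rows, were counted as 1 library.

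Totals over the listed sequences, 26249204 and 29223566, are not library depths. Ratios were computed in Python 3.11.15 with TMM from edgeR 4.0.16 over all rows, 0.5 added to each count, and a minimum of 50 counts summed over the pair. Intervals are exact binomial at 95% and reflect counting error alone, because without molecular identifiers PCR copies of a molecule are counted as separate reads. mRNA was tested with edgeR's quasi-likelihood test and DESeq2 1.42.0 in R 4.3.3, at 1.5-fold and an adjusted p under 0.05. No replicate block was used except where stated. The ratio and test scripts were tested on simulated data. The simulated small RNA pair held equal numbers of increases and decreases and no shift of a whole class, so it does not bear on the choice of scaling. snoRNAs were placed by name and length in the GENCODE annotation of NCBIM37, and alignments were global (match 1, mismatch -1, gap -2).

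A naming rule took, among rows with at least 500 counts, the 5 largest changes each way and the 5 most abundant of each class. It also took RT-qPCR references, the snoRNA lists and Trim28. The top row of each tRNA family falls under the rule too, but not all of these rows are named in the text. Rows beyond this rule were chosen after their values were seen, such as host gene members, Snord65, Leu, Cys, Met, SeC and Gly rows, and 1 row of identical counts. The members and lists were chosen with earlier results of these data known. Alternatives for scaling, minimum, pseudocount, fold, copies, test and block are given in the closing section.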

Additional observations from a re-analysis of the deposited data

Results flagged for a closer look

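Among sequences with at least 500 counts in both small RNA pairs, 3 rows, all Lys-CTT, were past 1.5-fold in opposite directions in Hepa 1.6 cells and in hepatocytes with TMM scaling. This difference was not tested, as each pair has 1 library per condition. chr9.tRNA1514-LysCTT had 888 and 233 counts in control and Kap1 KD Hepa 1.6 cells (ratio -1.28) and 112 and 403 in wild type and Kap1 KO hepatocytes (ratio 1.15). chr1.tRNA1268-LysCTT had 880 and 238 counts (ratio -1.23), and in hepatocytes its ratio was 1.12. chr9.tRNA1035-LysCTT had 2488 and 878 counts (ratio -0.85) and 154 and 472 (ratio 0.92). Relative to the tRNA median of each pair, which no scaling alters, they lay at -1.16, -1.12 and -0.73 in Hepa 1.6 cells and at 1.67, 1.65 and 1.44 in hepatocytes. The counts of the first 2 rows are nearly equal within each library, and whether they hold the same reads was not tested.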

How the results depend on the processing

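The difference between the snoRNA and tRNA medians (0.61) was 0.57 to 0.60 under other count minimums, another pseudocount and with identical copies counted once, and that between C/D and H/ACA snoRNAs (0.26) was 0.25 to 0.41. Scaling decided the sign of the snoRNA median. With total counts it was -0.32 and with totals without Snord12, a choice made after seeing the data, -0.19, while the tRNA median was -0.92 and -0.79. With TMM on rows of at least 500 counts, also added later, the medians were 0.28 and -0.32. DESeq2's median of ratios and the authors' normalized signal gave 0.47 and -0.14. Sequences at least 1.5-fold higher (57) numbered 3 with total counts, 3 without Snord12 in the totals and 35 with TMM on the larger rows. Those at least 1.5-fold lower (59) numbered 208, 176 and 87, and 18 at a minimum of 500 counts. At 2-fold there were 13 higher and 9 lower. Of the 51 sequences with a ratio under the naming rule, 13 went from above to below 0 with total counts. Among them 4 had been at least 1.5-fold higher, Snord49a (-0.21), chr3.tRNA292-LysCTT (-0.12), Snord99 (-0.12) and Snord83b (-0.01). With median of ratios 0 changed sign. At 500 counts 4 of 20 family medians relative to all tRNA changed sign, Cys (0.82 to -0.10), Met (0.43 to -0.16), Ile (0.19 to -0.12) and Trp (-0.32 to 0.56). snoRNAs higher in both pairs (73) numbered 15 with total counts. Leaving out a small RNA library is not possible.

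In mRNA, edgeR with the replicate block called 631 of all 14142 genes (4.46%) against 0 without it. Of the 69 listed genes it called 1, Snapc5, a subunit of SNAPc, with a log2 change of -0.70. DESeq2 with the same block called 231 of 21915 genes (1.05%) and 0 of 70 listed genes, and gave an adjusted p to 11293 genes. Same-numbered samples deviated together (r = 0.80 across genes), but only the number 2 stands in the labels. Trim28 kept its direction, at -2.48 with the replicate block and -2.47 in DESeq2, both past the threshold, and at -2.71 to -2.27 when each library was left out, also past it, where the lone sample of a group is assumed to vary like the other group. When a library was left out, 3 to 65 of all genes and 0 listed genes were called. Depth limits the rows near 50 counts most; the median interval over the 339 rows with a ratio reached 0.23 to either side of the ratio.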
